A study of Homo sapiens with 5 samples.

Results

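The genes described here are 3 FOXO transcription factors, FOXO1, FOXO3 and FOXO4, and 7 genes known as their targets, TXNIP, PIK3IP1, IRS2, SESN1, SESN3, FBXO32 and KLF9. They were chosen by name, as a pathway that the kinase AKT holds down, and are 10 of the 35453 gene names in the tables. RNA was measured in KGN, 1 established human line from a granulosa cell tumour, which stands in for the FSH-responsive cells of the ovarian follicle. All groups had 24 h in a charcoal-stripped medium to which 100 nmol/L androstenedione was added, the androgen that granulosa cells turn into oestrogen. The treatments were 100 ng/mL follicle-stimulating hormone (FSH), forskolin (FSK), 4 µg/mL SC79 and the phorbol ester PMA (phorbol myristate acetate), each set against 1 control. FSK activates adenylate cyclase and raises cAMP, SC79 is an activator of AKT, and PMA is an activator of protein kinase C. The treatment labels give 10 mmol/L FSK and 0.1 mmol/L PMA, whereas the protocol text carries a micro sign, which gives 10 µmol/L and 0.1 µmol/L. The control is titled as not treated, whereas the protocol has ethanol, the solvent of the treatments, added to it. Each group has 1 library, made from 270 ng of RNA pooled from 3 cultures of different weeks at 90 ng each. There is therefore no replicate error, and no difference given here has a replicate check or a p-value of its own.

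FOXO factors bind DNA through a forkhead domain and turn on genes of energy saving, stress defence, protein breakdown and insulin sensing. When insulin or growth factors activate AKT, it phosphorylates FOXO proteins, 14-3-3 proteins hold them in the cytoplasm, and their targets lose a driver. In rodent granulosa cells FSH acts through both protein kinase A and AKT, and FOXO1 is known there as a brake on differentiation. Phosphorylation and location of the proteins were not measured here, so the values below are RNA levels alone.

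Library totals, in units of 1000000 estimated counts, lay between 50.3 (SC79) and 58.8 (control). Values below are scaled counts per gene, and ratios are treatment over control on those counts, as folds or, where named so, log2 ratios with 1 count added. Bracketed ranges are exact 95% intervals of a ratio or share for counting error alone, because the reads carry no molecular identifiers and are not independent molecules. A gene is called higher or lower when its ratio to control was 2-fold or more and the larger of both scaled counts reached 100, a minimum that all 10 genes met in each comparison. Of the 11 granulosa markers looked up, all 11 had at least 20 scaled counts in some library, with FOXL2 between 5451 (PMA) and 10379 (SC79) counts. Their summed counts were 32603 with FSH, 66912 with FSK, 33235 with SC79 and 26553 with PMA, against 32298 in control. With PMA FOXL2 was at 5451 against 9964 in control and AMHR2 at 15.8 against 98.1, whereas INHBA was at 2904 against 1341. With FSK CYP19A1 had 27409 counts against 900.5 in control, whereas KITLG had 601.7 against 1998. FSHR, the FSH receptor, was low in each library, at 36.6 (PMA) to 131.6 (FSK) counts. The theca markers CYP17A1 and INSL3 had at most 13.6 and 4.3 counts, the T cell marker CD3E and the oocyte marker BMP15 had 0, and the endothelial marker CDH5 had at most 2.0. Of the other oocyte markers, ZP3 had 16.7 (control) to 33.3 (FSH) counts and GDF9 7.0 (FSH) to 18.8 (PMA). All 3 epithelial markers listed reached 20 counts in some library. KRT18 had 29828 (FSK) to 50120 (FSH) counts, EPCAM 11.5 (FSK) to 40.5 (PMA) and CDH1 10.7 (SC79) to 29.1 (PMA). STAR, the third theca marker listed and one that granulosa cells also express, had 3531 counts with FSH, 10078 with FSK, 1333 with SC79 and 5377 with PMA, against 1011 in control. It makes up nearly all of the summed theca list, which was at 3540, 10093, 1345 and 5383 counts with these treatments and 1019 in control. CD68 and PECAM1, listed as immune and endothelial markers, were highest with PMA, at 2176 and 647.3 counts against 790.4 and 108.6 in control. VWF, also endothelial, had 237.2 counts with PMA and 98.2 in control, while PTPRC, the general leukocyte marker, had 37.5 with PMA and 37.7 in control. The summed immune list, mostly CD68, was at 2213 counts with PMA and 828.1 in control, and the summed endothelial list at 886.5 and 206.7. What part these markers have in the FSH, FSK and PMA results below was not tested. In RNA of whole cultures, a change in RNA per cell and a change in which cells are present cannot be told apart.

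Most of the 10 genes stayed near control with FSH and SC79, and most left it with FSK and PMA. With FSK, KLF9 was 9.87-fold and FOXO1 3.95-fold higher than in control. With PMA, FBXO32 was 2.65-fold higher, whereas SESN3 and SESN1 were at 0.294 and 0.466 of control. Neither FSH nor SC79 put any of the 10 genes past 2-fold.

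**Figure D1:**
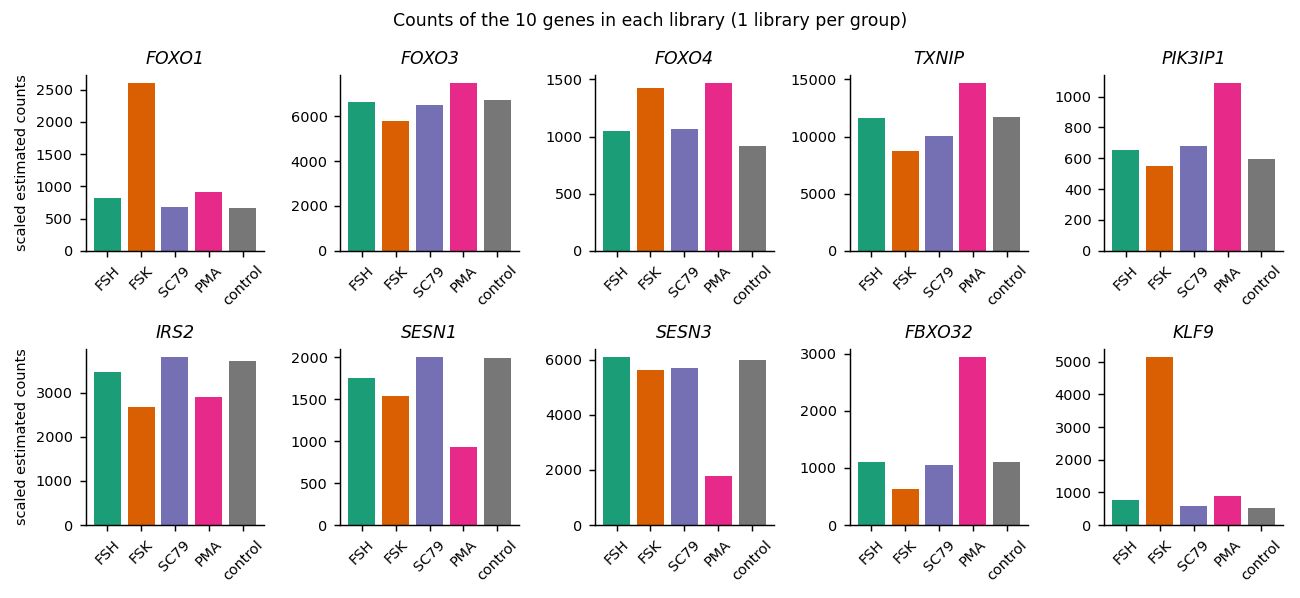
Scaled estimated counts (y axis, from 0, a scale per gene) of the 10 genes in the FSH, FSK, SC79, PMA and control libraries (x axis). Each bar is 1 library, so there are no error bars. The FSK bar stands out for FOXO1 and KLF9, and the PMA bar for SESN1, SESN3 (low) and FBXO32 (high).

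With FSH, 0 of 10 were called higher, where 0.305% of 12471 genes compared were, and 0 of 10 lower, where 0.104% were. SC79 gave 0 higher against 0.224% of 12482 genes, and 0 lower against 0.0401%. With FSK, 2 of the 10 were called higher, beside 4.13% of 12606 genes, and 0 lower, beside 5.42%. PMA gave 1 higher beside 3.64% of 12645 genes, and 2 lower beside 3.62%. Counts this small among 10 genes are a description. The number within 1.2-fold of control was 8 of 10 with FSH, 3 with FSK, 10 with SC79 and 1 with PMA, beside 93.7%, 52.5%, 90.7% and 55.2% of all genes compared. The median log2 ratio of the 10 genes was 0.01 with FSH, -0.16 with FSK, 0.02 with SC79 and 0.40 with PMA, where the median over all genes lay between -0.01 and 0.01. Their median absolute log2 ratio was 0.12, 0.45, 0.08 and 0.71, in the same order of treatments, beside 0.07, 0.25, 0.09 and 0.23 over all genes. The 4 ratios of a gene share the control library.

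**Figure D2:**
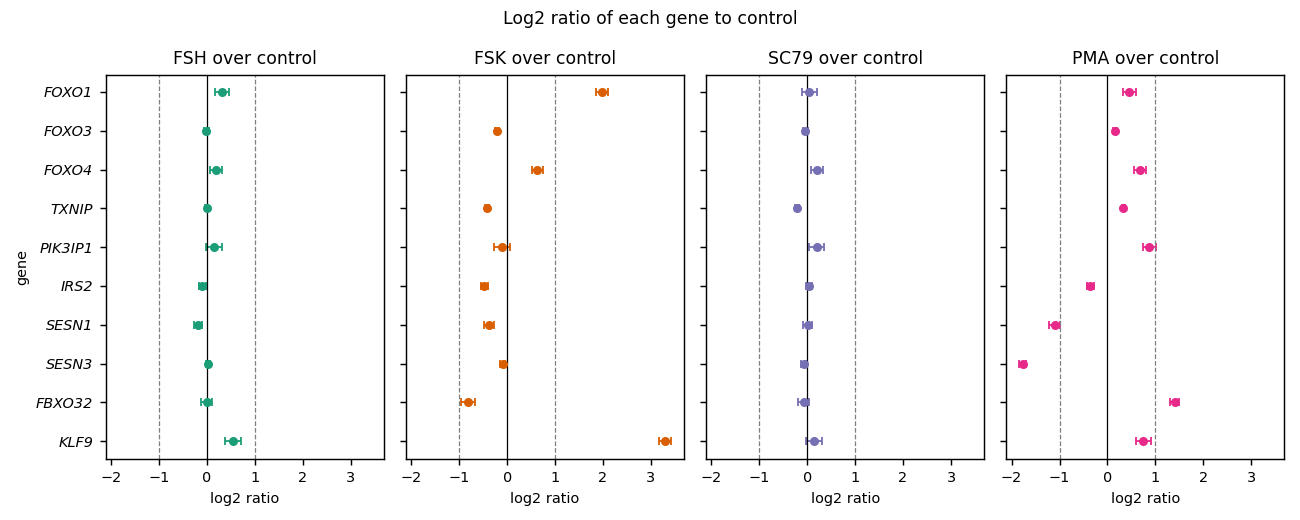
Log2 ratio of each gene to control (x axis) for FSH, FSK, SC79 and PMA, with exact 95% counting intervals as bars and dashed lines at 2-fold. The SC79 points lie within 1.2-fold of control, the FSK points of FOXO1 (1.98) and KLF9 (3.30) lie far right, and the PMA points run from SESN3 (-1.77) to FBXO32 (1.40).

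Of the factors, FOXO1 (ENSG00000150907, chromosome 13, 40469953 to 40666597, minus strand, GRCh38) is the one most studied in granulosa cells. It had 820.6 counts with FSH, 2605 with FSK, 679.2 with SC79 and 907.4 with PMA, against 659.3 in control. The FSK library stands apart from the other 4, and SC79 and control cannot be told from each other. The ratios were 1.24 [1.12 to 1.38] with FSH, 3.95 [3.64 to 4.30] with FSK, 1.03 [0.925 to 1.15] with SC79 and 1.38 [1.25 to 1.52] with PMA. Set directly against FSH, FOXO1 was 3.18-fold [2.93 to 3.44] higher with FSK and at 0.828 [0.745 to 0.919] with SC79. FOXO1 RNA was thus higher, not lower, with the hormone, with the cAMP agent and with PMA, and with FSK 1.25% of the genes compared had a higher ratio.

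FOXO3 (ENSG00000118689, chromosome 6, 108559835 to 108684774, plus strand), the factor known for holding oocytes dormant in mice, varied least of the 10. It had 6635 counts with FSH, 5794 with FSK, 6513 with SC79 and 7482 with PMA, against 6704 in control. Its lowest and highest libraries were 1.29-fold apart, with FSK at 0.864 [0.834 to 0.895] of control and PMA at 1.12 [1.08 to 1.15]. The FSH and SC79 intervals, 0.957 to 1.02 and 0.939 to 1.00, reach no difference. In FOXO3, 65.4% of the 31-base words of its transcripts occur in no other gene. The processed pseudogene FOXO3B shares 18.2% of them, the sense intronic AC026271.3 14.2% and ZNF286B 1.99%, so reads could be assigned to any of these. FOXO3B had 294.7, 224.0, 314.2 and 242.5 counts with FSH, FSK, SC79 and PMA and 277.4 in control. Adding the FOXO3B counts to FOXO3 gave log2 ratios of -0.01, -0.21, -0.03 and 0.15, next to -0.01, -0.21, -0.04 and 0.16 for FOXO3 alone. The counts of AC026271.3 and ZNF286B were not added.

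FOXO4 (ENSG00000184481, chromosome X, 71096197 to 71103535, plus strand) is the shortest of the 3 factor genes by genomic span. It had 1048 counts with FSH, 1421 with FSK, 1062 with SC79 and 1469 with PMA, against 917.9 in control, the lowest library. FSK and PMA gave similar ratios of 1.55 [1.43 to 1.68] and 1.60 [1.48 to 1.74], and the direct ratio of PMA over FSK was 1.03 [0.960 to 1.11]. FSH and SC79 gave smaller ones, 1.14 [1.05 to 1.25] and 1.16 [1.06 to 1.26]. FOXO4 passed 1.5-fold with FSK and PMA and 2-fold with neither.

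Among the targets, KLF9 (ENSG00000119138, chromosome 9, 70384597 to 70414624, minus strand), a Krüppel-like zinc finger factor that glucocorticoid and thyroid hormones also induce, moved furthest. It had 759.7 counts with FSH, 5139 with FSK, 572.4 with SC79 and 875.8 with PMA, against 520.8 in control. The FSK library holds 9.87 times the control count [9.04 to 10.8], and 51 of 12606 genes had a higher ratio. FSH gave 1.46 [1.31 to 1.63], under 2-fold, yet only 0.874% of the genes compared with FSH had a higher ratio, since most lay so close to control. PMA gave 1.68 [1.51 to 1.87], and SC79 gave 1.10 [0.975 to 1.24], which includes no difference. Direct ratios were 6.76 [6.27 to 7.31] for FSK over FSH and 0.170 [0.158 to 0.183] for PMA over FSK. KLF9 and IRS2 have 1 transcript each in the tables, so no split between transcripts enters their counts.

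FBXO32 (ENSG00000156804, chromosome 8, 123497889 to 123541206, minus strand) encodes atrogin-1, a ubiquitin ligase subunit of muscle wasting and a textbook FOXO target. It had 1106 counts with FSH, 630.6 with FSK, 1053 with SC79 and 2941 with PMA, against 1112 in control. The gene was low with FSK and high with PMA, while FSH and SC79 gave intervals that include no difference, 0.917 to 1.08 and 0.870 to 1.03. Ratios were 0.567 [0.514 to 0.626] with FSK and 2.65 [2.47 to 2.83] with PMA, and PMA over FSK was 4.66 [4.27 to 5.10]. Between 69.6% (FSK) and 80.4% (FSH) of its counts were on 1 transcript.

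The sestrins SESN1 and SESN3 encode stress proteins that restrain the growth kinase complex mTORC1. SESN3 (ENSG00000149212, chromosome 11, 95165513 to 95232541, minus strand) had 6092 counts with FSH, 5633 with FSK, 5693 with SC79 and 1763 with PMA, against 6007 in control. The PMA library alone is low, and the other 4 lie between 5633 and 6092. PMA gave 0.294 [0.278 to 0.309], a 3.41-fold lower count, and 0.672% of the genes compared had a lower ratio. FSK gave 0.938 [0.904 to 0.972] and SC79 0.948 [0.914 to 0.983], whereas the FSH interval, 0.979 to 1.05, includes no difference.

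SESN1 (ENSG00000080546, chromosome 6, 108986437 to 109094819, minus strand), which p53 also induces, had 1747 counts with FSH, 1531 with FSK, 1998 with SC79 and 926.2 with PMA, against 1989 in control. The PMA ratio was 0.466, and its interval of 0.431 to 0.503 reaches just across the 2-fold limit. FSK gave 0.770 [0.720 to 0.823], FSH 0.878 [0.824 to 0.936] and SC79 1.00 [0.944 to 1.07]. SESN1 was thus lower with 3 of the treatments and level with SC79.

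TXNIP (ENSG00000265972, chromosome 1, 145992435 to 145996600, minus strand), which blocks thioredoxin and glucose uptake and also answers to glucose itself, was the most abundant target. It had 11632 counts with FSH, 8728 with FSK, 10030.5 with SC79 and 14694 with PMA, against 11680 in control. FSK and SC79 lay below control and PMA above it, each by less than 1.5-fold. The ratios were 0.747 [0.727 to 0.768] with FSK, 0.859 [0.836 to 0.882] with SC79 and 1.26 [1.23 to 1.29] with PMA. The FSH ratio was 0.996 [0.971 to 1.02]. With SC79, TXNIP had the lowest ratio of the 10 genes, and it was lower with SC79 than with FSH as well, at 0.862 [0.839 to 0.886]. Its relative ARRDC4, a further arrestin-like gene that answers to glucose, had log2 ratios of 0.00 with FSH, -0.02 with FSK, -0.12 with SC79 and 0.22 with PMA.

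PIK3IP1 (ENSG00000100100, chromosome 22, 31281593 to 31292534, minus strand) encodes a membrane protein that inhibits PI 3-kinase, upstream of AKT. It had 656.2 counts with FSH, 549.8 with FSK, 678.2 with SC79 and 1089 with PMA, against 592.8 in control. PMA was the highest library, with a ratio of 1.84 [1.67 to 2.03] that stops short of 2-fold while its interval crosses it. SC79 gave 1.14 [1.02 to 1.28], and the intervals of FSH, 0.992 to 1.24, and FSK, 0.825 to 1.04, include no difference.

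IRS2 (ENSG00000185950, chromosome 13, 109752698 to 109786568, minus strand) encodes the adaptor that links the insulin receptor to PI 3-kinase. It had 3472 counts with FSH, 2673 with FSK, 3804 with SC79 and 2894 with PMA, against 3709 in control. FSK and PMA lay below control at 0.721 [0.686 to 0.758] and 0.780 [0.744 to 0.818]. FSH gave 0.936 [0.894 to 0.980], and SC79 gave 1.03 [0.980 to 1.07].

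The name of the set says that AKT represses these targets, and with the AKT activator SC79 the 7 targets had log2 ratios between -0.22 and 0.19 with a median of 0.01. Of the 7, 3 were below control with SC79, TXNIP, SESN3 and FBXO32, beside 52.3% of all genes compared, so that count is near background. The interval excludes no difference for TXNIP and SESN3. AKT1, the kinase gene itself, had a log2 ratio of 0.01 with SC79. The counts therefore do not show the targets lower as a group after 24 h of SC79, and whether AKT was active then was not measured. The median of the 7 targets was -0.01 with FSH, -0.38 with FSK and 0.33 with PMA, with 4, 6 and 3 of 7 below control, beside 53.7%, 48.9% and 50.9% of all genes. The FSH and PMA counts are near that background. With FSK the 6 below control sit beside KLF9, and the factor FOXO1 was higher.

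**Figure D3:**
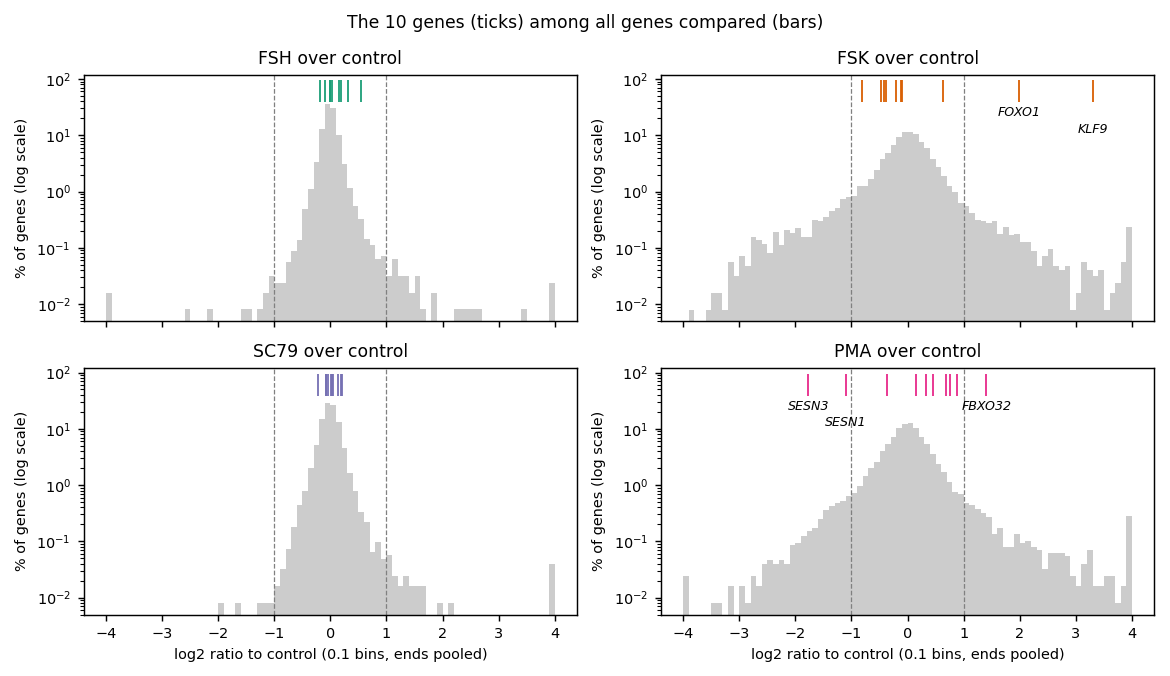
Share of all genes compared (y axis, % on a log scale) by log2 ratio to control (x axis, bins of 0.1, the end bins holding all genes beyond them), with the 10 genes as coloured ticks and those past the 2-fold rule named. SC79 ticks and most FSH ticks lie in the narrow centre, with FOXO1 (0.32) and KLF9 (0.54) to its right with FSH. FOXO1 and KLF9 with FSK, and SESN3, SESN1 and FBXO32 with PMA, lie in the tails.

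Levels can be compared between genes per length. In scaled counts per kilobase of transcript, the means over the 5 libraries were 3974 for TXNIP, 912 for FOXO3, 591 for SESN1, 530 for SESN3, 450 for FOXO4, 434 for FBXO32, 407 for IRS2, 304 for KLF9, 293 for PIK3IP1 and 199 for FOXO1. Neighbours from SESN1 down to IRS2 lie within 1.2-fold of the next, and their order differs between libraries. KLF9 changed place most, with 993 per kilobase and 2nd place with FSK, against 101 and 10th place in control. FBXO32 was 3rd with PMA at 898 and 6th in control at 356. SESN3 was 8th with PMA at 186 and 4th in control at 632.

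FOXO3 and SESN1 each have 2 main transcripts, and the division of counts between them differed between libraries. In FOXO3 the second transcript, ENST00000406360, starts at 108560866 and lies 1031 bases downstream of the start of the first, ENST00000343882. It held 32.3% of the gene's counts with FSH, 17.0% [16.0 to 18.0] with FSK, 28.7% with SC79 and 24.5% with PMA, against 29.5% [28.5 to 30.6] in control. The FSK share is the lowest. With FSK this transcript was at 0.497 [0.460 to 0.537] of control while the first was at 1.02 [0.981 to 1.06], so the lower FOXO3 total with FSK lies in the downstream transcript. In SESN1 the transcripts ENST00000356644, from the start at 109009555, and ENST00000436639, from the start at 109094819, begin 85264 bases apart. The first held 59.9% with FSH, 63.7% with FSK, 65.2% with SC79 and 48.5% [45.3 to 51.8] with PMA, against 61.5% [59.4 to 63.6] in control. With PMA it was at 0.367 of control [0.330 to 0.409], and the other at 0.627 [0.557 to 0.704]. Reads are told apart by few words, 2.98% of those of the downstream FOXO3 transcript and 7.33% of those of ENST00000356644 occurring in no other transcript of the gene, and the intervals do not cover errors of that assignment.

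**Figure D4:**
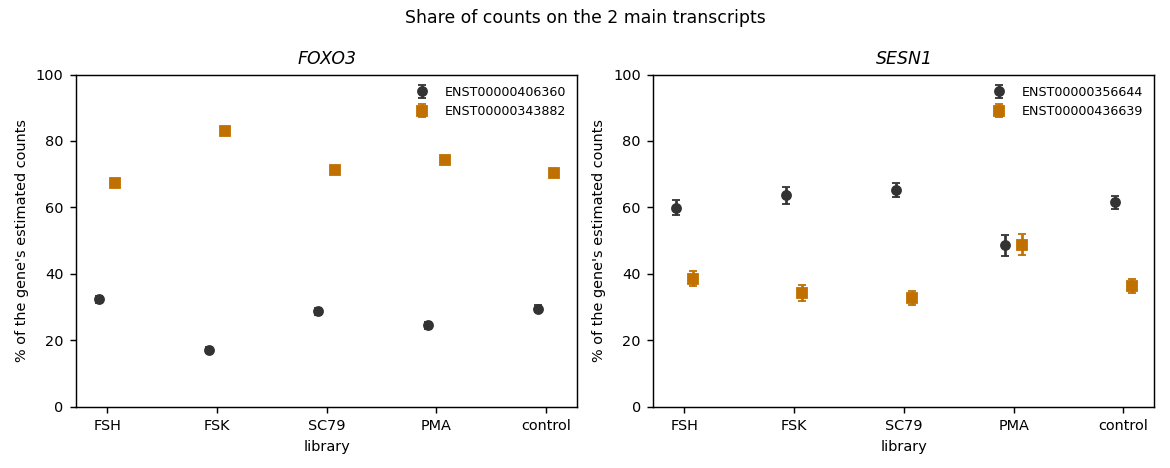
Share of the gene's estimated counts (y axis, %) on each of the 2 main transcripts of FOXO3 and SESN1 in each library (x axis), with exact 95% counting intervals. The FOXO3 transcripts are furthest apart with FSK (83.0% and 17.0%), and the SESN1 transcripts are level with PMA (48.5% and 48.8%).

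The 2 SESN1 starts are shown because the PMA ratios of their transcripts differ. These are the 100 bases before each RefSeq start (GRCh38.p14, minus strand), at the RefSeq starts nearest to the annotated ones, chr6:109094847-109094946 for ENST00000436639 and chr6:109009553-109009652 for ENST00000356644, and neither holds the letters searched below:
SESN1 distal start: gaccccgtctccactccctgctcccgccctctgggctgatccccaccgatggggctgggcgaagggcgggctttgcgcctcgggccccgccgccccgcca
SESN1 proximal start: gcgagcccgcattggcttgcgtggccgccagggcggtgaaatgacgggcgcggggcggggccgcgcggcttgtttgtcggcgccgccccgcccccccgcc

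Promoter windows of 300 bases, 250 before and 50 after each start, were taken from RefSeq (GRCh38.p14) for 9 of the 10 genes, all but FBXO32, with 16 windows in all. The forkhead letters GTAAACA, on either strand (TGTTTAC), occur in 3.42% of all 35116 windows and in 3 of the 16, those of TXNIP, PIK3IP1 and FOXO4. The insulin response letters CAAAACA, read from the opposite strand as TGTTTTG, occur in 4.92% of all windows and in 1 of the 16, that of IRS2. TGACGTCA, the cAMP response letters, occurs in 1.85% of all windows and in 0 of the 16, FOXO1 and KLF9 included. A match is a run of letters and not a bound site, and no match speaks only of this window. The 4 matches are shown because they are the forkhead and insulin response letters found near these starts. With PMA the genes with the forkhead letters, TXNIP, PIK3IP1 and FOXO4, were at 1.26, 1.84 and 1.60, where 7 of the 10 genes were above control. With FSK these genes were at 0.747, 0.927 and 1.55. IRS2, with the insulin response letters, was at 0.780 with PMA and 0.721 with FSK. A link between the letters and these ratios was not tested. The matches are read on the gene's strand with the matched letters in capitals, the RefSeq start being base 1. For FOXO4 that start is 71095851, whereas the main transcript in the counts starts at 71096197. The FOXO4 match thus lies upstream of the main transcript. PIK3IP1 has RefSeq starts at 31292488, from which its match is numbered, and at 31292534. The main transcript starts at 31292528, near the latter, whose window holds no match. The match lies downstream of all these starts. The TXNIP stretch is chr1:145996580-145996829 (minus strand, the 250 bases before the start, match from base -124). IRS2 is chr13:109786606-109786634 (minus strand, match from base -40), PIK3IP1 chr22:31292455-31292483 (minus strand, match from base 17) and FOXO4 chrX:71095863-71095891 (plus strand, match from base 24):
TXNIP: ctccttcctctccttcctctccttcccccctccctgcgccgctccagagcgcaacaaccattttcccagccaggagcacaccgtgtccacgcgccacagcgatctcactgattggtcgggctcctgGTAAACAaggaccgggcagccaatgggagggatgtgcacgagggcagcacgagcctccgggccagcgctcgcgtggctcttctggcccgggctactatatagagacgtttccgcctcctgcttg
IRS2: gagtcacatgtTGTTTTGctcttcttagt
PIK3IP1: taaagagaggcTGTTTACcagaacagcat
FOXO4: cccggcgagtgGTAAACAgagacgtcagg

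Of 30 further FOXO targets listed, 26 had at least 100 scaled counts with FSH, FSK and SC79 and 27 with PMA. The list was chosen with earlier results of these data known, so its counts and medians are a description. With FSK, 5 were called higher and 3 lower, beside 4.13% and 5.42% of all genes compared. The median log2 ratio was 0.29 with 20 of 26 above 0, where 51.1% of all genes were. TNFSF10, the death ligand TRAIL, had 2691 counts against 537.7 in control, or 5.01-fold [4.58 to 5.49]. IGFBP1, an IGF-binding protein of insulin-sensitive tissues, was 4.24-fold higher [3.84 to 4.69], BCL2L11, the cell death gene BIM, 3.35-fold [3.18 to 3.54] and PDK4, which turns cells from glucose to fat, 3.18-fold [2.73 to 3.71]. Lower with FSK were the growth arrest genes GADD45A at 0.329 [0.312 to 0.346] and GADD45B at 0.382 [0.337 to 0.433], and BBC3, the cell death gene PUMA, at 0.485 [0.444 to 0.530]. FSK thus had listed FOXO targets past 2-fold on both sides.

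With PMA, 4 were called higher and 1 lower, beside 3.64% and 3.62% of all genes compared. The median was 0.31 with 21 of 27 above 0, where 49.1% of all genes were. PPARGC1A is among the 27 through its PMA count of 109.9 alone, and without it 3 of 26 were called higher, 20 of 26 were above 0 and the median was 0.29. SOD2, the mitochondrial superoxide dismutase, had 13982 counts against 5299 in control, or 2.64-fold [2.56 to 2.72]. PPARGC1A, a coactivator of mitochondrial genes, was 4.61-fold higher [2.98 to 7.35] from 23.8 counts in control (with FSK it was 4.06-fold higher at 96.8 counts, under the minimum), IGFBP1 2.43-fold [2.19 to 2.71] and IRS1, the sister adaptor of IRS2, 2.23-fold [2.10 to 2.37]. GADD45A was at 0.479 [0.458 to 0.501], and with libraries scaled by their totals its log2 ratio was -0.997 instead of -1.06, short of 2-fold. IRS1 was 3.16-fold higher with FSK as well, in both cases where IRS2 was lower. With FSH and SC79 none of the 26 was called. Their medians were 0.05 and 0.01, with PDK4 at 0.46 and GADD45A at -0.23 the extremes with FSH, and CDKN1A at 0.32 and BNIP3 at -0.43 with SC79.

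**Figure D5:**
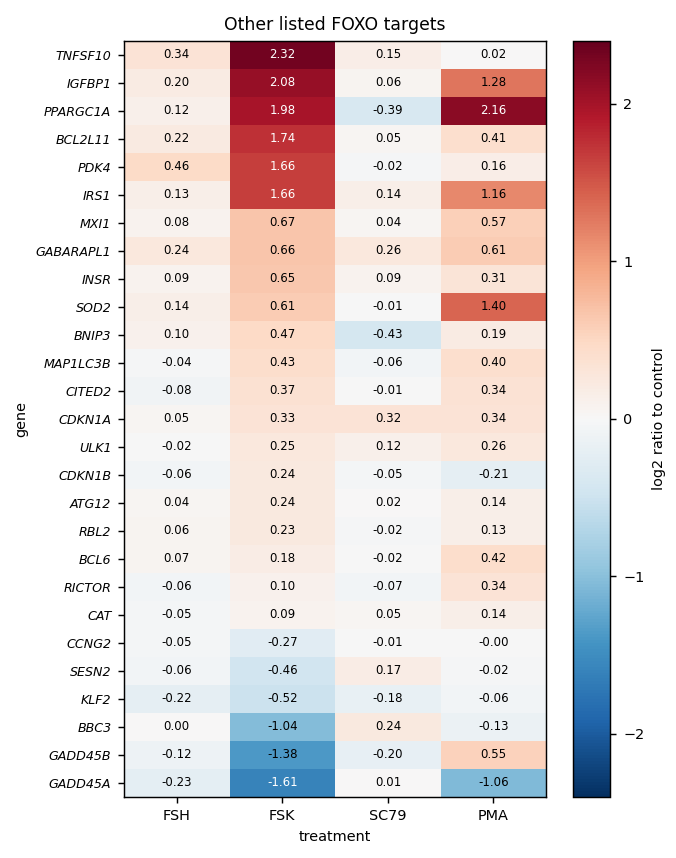
Log2 ratio to control (colour and number) of 27 of the 30 further listed FOXO targets (rows, sorted by FSK), those with at least 100 scaled counts in some comparison, for each treatment (columns). PPARGC1A with FSK (1.98) is from 96.8 counts, under the minimum; the FSK and PMA columns hold the strong colours and the FSH and SC79 columns are pale.

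Relatives of the 10 genes, 14 in the list, had 11 with enough counts. IRS1, SESN2 and TRIM63 are also among the 30 further FOXO targets, so the IRS1 calls are the same values in both lists. With FSK 3 of the 11 were called higher and 1 lower, beside 4.13% and 5.42% of all genes compared. Higher were IRS1, the arrestin-like ARRDC3 (1.56) and the zinc finger factor KLF4 (1.44, log2 ratios). KLF10 was lower, at 0.234 [0.216 to 0.252] of control, opposite to KLF9. With PMA IRS1 alone was called, as higher, beside 3.64% of all genes higher and 3.62% lower. FSH and SC79 gave 0 calls, with KLF11 at 0.15 and KLF10 at -0.18 with FSH, and SESN2 at 0.17 and KLF10 at -0.23 with SC79.

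Of 29 genes that act on FOXO proteins, 27 had enough counts. With FSK 1 was called higher and 1 lower, beside 4.13% and 5.42% of all genes compared. With PMA 0 were called higher and 1 lower, beside 3.64% and 3.62%. Counts this small lie near that background. SGK1, a kinase that phosphorylates FOXO proteins as AKT does, had 20491 counts with FSK against 7100 in control, or 2.89-fold [2.81 to 2.96]. SKP2, a ubiquitin ligase subunit that marks FOXO1 for breakdown, was at 0.342 [0.311 to 0.376] with FSK and at 0.496 [0.457 to 0.538] with PMA, the PMA call being lost with libraries scaled by their totals (log2 ratio -0.95). None of the other regulators was called. With FSH SGK1 and SKP2 were the extremes too, at log2 ratios of 0.21 and -0.25, and with SC79 MDM2 was at 0.10 and PHLPP2, an AKT phosphatase, at -0.35.

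A list of 11 genes of steroid receptor and glucose response, 9 with enough counts, was set beside KLF9 and TXNIP, which answer to those signals. With FSK 2 of the 9 were called higher and 1 lower, beside 4.13% and 5.42% of all genes compared. The phosphatase gene DUSP1 was at a log2 ratio of 1.56 and the clock gene PER1 at 1.19, both called higher. FKBP5, a glucocorticoid and androgen target, was called lower at -1.25. None was called with FSH, where DUSP1 was at 0.30 and FKBP5 at -0.08, with SC79, where TSC22D3 was at 0.11 and FKBP5 at -0.17, or with PMA, where NR3C1 was at 0.74 and PGR at -0.45.

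Genes whose 4 log2 ratios lay nearest to those of a called member were searched among 12410 genes by Euclidean distance. Nearest to FOXO1 were SLC2A12, a glucose transporter (distance 0.139), LIMCH1 (0.158) and the desmocollin DSC3 (0.198). Near KLF9 were the phosphodiesterase gene PDE4D (0.305) and AVPI1 (0.369). The pseudogene FAM86DP (0.117), the cyclin gene CCNG1 (0.124) and CBS (0.140) lay nearest to SESN1. For SESN3 they were the matrix protein gene SPARC (0.155), VSTM4 (0.165) and LGALSL (0.194), and for FBXO32 the homeobox gene HLX (0.170), the tetraspanin gene CD9 (0.175) and IER3 (0.211). Each distance rests on 4 ratios that share the control.

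From the authors' deposited table, log2 fold changes and p-values were read for 15 of the 41 transcripts of the 10 genes. These are the main transcript of each gene and others with a mean of at least 100 scaled counts. In the 4 treatments they give 60 values in all. The share of all transcripts in that table that pass the same limits was not computed. Counts among the 60 are therefore a description. An adjusted p under 0.05 was held by 0 of the 60 in the authors' deposited table and an unadjusted p under 0.05 by 1, that of KLF9 with FSK (log2 fold change 3.30, p = 0.0041, adjusted p = 0.118). FOXO1 with FSK was at 1.98 in the authors' deposited table (adjusted p = 0.678), and SESN3 with PMA at -1.83 (adjusted p = 0.793). The authors' deposited table has an adjusted p of 1 for FBXO32 with PMA (1.38, main transcript) and for SESN1 with PMA (-1.51, ENST00000356644).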

How the data were processed

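Polyadenylated RNA of KGN cells was sequenced as paired ends, with 1 library in each of 5 groups taken from the treatment labels. Reads went through Trimmomatic, kallisto and edgeR, per the submitters' processing notes. For the genome build, the transcript index and strand, the entry is "not given in the sources used here". The authors deposited estimated counts per transcript, per the file headers, and a normalized signal, which equals those counts times 1 constant per library (0.934 to 1.03) and was not used further. The authors' deposited table of comparisons gives, per transcript, a log2 fold change and p-values before and after adjustment, with no dispersion setting stated. All of the sample columns were matched to a group, and its LH columns were not used here.

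Planned counts per gene were made by summing estimated counts of all transcripts that carry the same of 35453 gene names. The 303 transcripts with no gene name, 0.0535% to 0.0680% of counts, were left out of library sizes. Sums were rounded and scaled by TMM in edgeR 4.0.16 under R 4.3.3, with factors between 0.976 (FSK) and 1.03 (PMA). Log2 ratios use a pseudocount of 1. Ratios have exact conditional binomial (Clopper-Pearson) 95% intervals and shares have exact binomial ones, both covering counting error only. With 1 library per group no p-value was computed. Other steps used scipy 1.17.1, pandas 2.3.3, numpy 2.4.6 and matplotlib 3.10.9 under Python 3.11.15, and the calculation was tested on simulated data. Coordinates, transcript lengths and 31-base words are from GENCODE release 29 (GRCh38), in which all 41 transcripts of the 10 genes were found, and 89.7% of the transcripts in the tables. Promoter sequences are from RefSeq (GRCh38.p14).

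The 10 genes, the other lists and the rules were chosen with earlier results of these data known. All 10 genes are named. Of each list, genes past the 2-fold and 100-count rule are named, at most 4 a direction, or else the highest and lowest. Genes named for nearness are the 3 nearest to each called member, of which 1 is not reported here. Alternatives were DESeq2 1.42.0 size factors, library totals, a pseudocount of 5, a minimum of 20 counts or none, 1.5-fold, protein-coding transcripts and the main transcript.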

Additional observations from a re-analysis of the deposited data

How the results depend on the processing

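No paired analysis was possible because each group has 1 library, and no library could be left out. Of 200 recomputed member ratios 8 moved beyond their counting interval, and no called ratio changed sign. FOXO3 with FSK, which was not called, was at a log2 ratio of 0.03 on its main transcript, against -0.21 on all. SESN1 with PMA was at -1.44 on its main transcript. At 1.5-fold 1 of the 10 genes was lower with FSK (FBXO32) and 4 were higher with PMA (FBXO32, PIK3IP1, KLF9 and FOXO4). With library totals 0 further FOXO targets were called lower with PMA, GADD45A being the 1 otherwise called. Over all genes, the counts called higher and lower at 1.5-fold were 91 and 37 with FSH, 1154 and 1355 with FSK, 91 and 48 with SC79 and 1033 and 1163 with PMA. With a minimum of 20 counts they were 136 and 76 with FSH, 119 and 71 with SC79 and 720 and 693 with PMA. Without a minimum they were 1222 and 1104 with FSH, 2735 and 2018 with FSK, 2082 and 1072 with SC79 and 2095 and 1769 with PMA, settings that by construction let more genes pass. The 123 other recomputed counts and medians stayed within 1.5 times or their spread. Each library is a pool, so the spread between cultures was not measured, and greater depth would narrow the counting intervals alone.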
